A study of Mus musculus with 6 samples.

Results

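Lysosomal genes were followed in RNA from whole mouse liver, as a list of 33 genes for membrane proteins, soluble hydrolases with their helper proteins, and the proton pump that acidifies the lysosome. Cathepsins were not on the list. The members were taken by gene symbol, and all 33 were found among the 17119 symbols of the count table and passed the filter on low counts, which 12706 genes passed.

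All 6 samples came from livers of mice fed a high-fat high-cholesterol diet for 12 weeks, a diet used to bring on steatohepatitis. All animals carried the Clec4f-iCre driver, which acts in the liver's own macrophages, the Kupffer cells. The 3 wild-type samples were littermates of genotype Clec4f-iCre;Cebpb+/+, and the 3 heterozygous samples were Clec4f-iCre;Cebpbfl/+, in which Kupffer cells lose 1 of their copies of Cebpb, the gene of the transcription factor C/EBPβ. The sample labels of replicates 2 and 3 write the driver as Clec5f-iCre and Clec6f-iCre, whereas the series design names Clec4f throughout. The sources used here give no age or sex. Nothing ties each sample to a separate animal, so p-values measure only the spread between these samples.

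Lysosomes break down material from endocytosis, phagocytosis and autophagy at an acid pH kept by the vacuolar H+-ATPase (V-ATPase). Every liver cell has them, and macrophages, which take up lipoproteins, dying cells and lipid droplets, are rich in them. Many lysosomal genes carry the CLEAR element in their promoters, which TFEB and the related factors TFE3, MITF and TFEC bind.

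Levels are given in CPM, read counts per 1e6 after scaling by library size and TMM factor, and each log2 fold change compares heterozygous to wild-type livers, with its SE, in edgeR's quasi-likelihood test. Adjusted p-values are Benjamini-Hochberg values over all 12706 genes, and 0.05 is the threshold. The libraries held between 16895322 and 17750755 counts, of which the 33 genes took 0.418% to 0.517%. Cebpb stood at 506, 308 and 340.4 CPM in the wild-type and at 204, 498 and 269 CPM in the heterozygous libraries, overlapping between groups (log2 fold change −0.25 ± 0.37, edgeR adjusted p = 0.864). Hepatocytes and other cells that keep both copies also express Cebpb, so its level in whole tissue is a weak check of the labels.

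Of the 33 lysosomal genes, 2 fell in the heterozygous livers and 0 rose. The genes that fell were Laptm5 and Pld4, both known from leukocytes, and each dropped by more than 2-fold. Across all tested genes edgeR called 0.559% lower and 0.0236% higher. At an unadjusted p under 0.05, 8 members were lower and 0 higher, against 9% and 4.2% of all genes. DESeq2 called 3 members lower and 0 higher, against 3.56% and 0.645% of all genes, and limma-voom 2 and 0, against 0.354% and 0.00787%. The median log2 fold change was −0.10 over the members and 0.0048 over all tested genes, and 26 members had a negative fold change, as did 49% of all genes. The heterozygous libraries lay wholly below the wild-type ones for 10 members, against 11.3% of all genes, and wholly above for 1 member, against 7.05%.

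**Figure D1:**
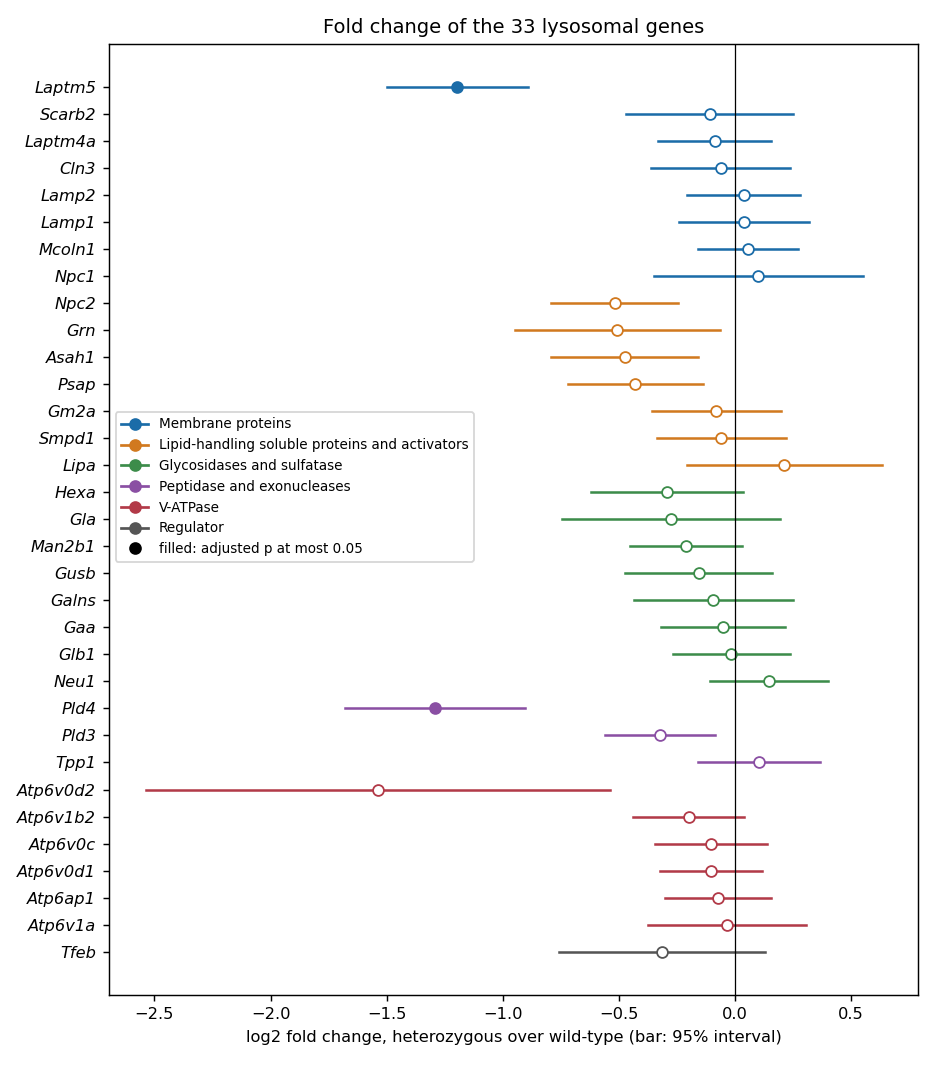
Log2 fold change of each of the 33 genes (x axis, heterozygous over wild-type), grouped by role and ordered within a role, with bars for the 95% interval of the edgeR fit on 3 against 3 libraries. Laptm5 and Pld4 carry the filled points of an adjusted p at most 0.05, and Atp6v0d2 has the widest interval, −2.54 to −0.54.

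The promoters of the members were read first for the CLEAR core, TCACGTG on either strand, since it is the sequence feature that lysosomal genes are known to share. RefSeq promoter windows of 300 bases on GRCm38.p6 (250 before the start and 50 after) were matched by symbol for 28 members, with 34 windows in all. The core was found in 8 of these windows (23.5%), each of a different gene, against 3.77% of 32851 windows of all genes. Those genes were Lamp1, Mcoln1, Cln3, Gaa, Gla, Glb1, Atp6v0d1 and Atp6v1a. The plain E-box CACGTG, which the core contains, was in the same 8 windows and in 7.15% of all windows. A match describes the letters and does not show a bound site.

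Windows are shown for Pld4, a member that fell, and for Lamp1 and Mcoln1, which hold several CLEAR cores, each from 250 bases before the start to 30 after it. Capitals mark a match to TCACGTG, to either of the C/EBP patterns TTNNGCAA and TGNNGCAA, or to the PU.1 core AGGAAGT, on either strand. The windows lie on GRCm38.p6, plus strand, at chr12:112760405-112760684 for Pld4, chr8:13158911-13159190 for Lamp1 and chr8:3500269-3500548 for Mcoln1.
Pld4: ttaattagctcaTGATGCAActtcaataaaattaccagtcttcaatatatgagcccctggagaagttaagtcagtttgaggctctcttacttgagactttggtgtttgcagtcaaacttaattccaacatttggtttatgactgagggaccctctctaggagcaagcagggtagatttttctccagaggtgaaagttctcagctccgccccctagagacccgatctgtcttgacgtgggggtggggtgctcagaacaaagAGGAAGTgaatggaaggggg
Lamp1: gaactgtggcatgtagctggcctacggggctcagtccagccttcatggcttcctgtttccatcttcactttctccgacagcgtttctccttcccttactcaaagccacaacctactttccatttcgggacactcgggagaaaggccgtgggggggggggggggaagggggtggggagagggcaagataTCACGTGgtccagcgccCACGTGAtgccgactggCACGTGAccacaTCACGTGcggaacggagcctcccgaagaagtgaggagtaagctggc
Mcoln1: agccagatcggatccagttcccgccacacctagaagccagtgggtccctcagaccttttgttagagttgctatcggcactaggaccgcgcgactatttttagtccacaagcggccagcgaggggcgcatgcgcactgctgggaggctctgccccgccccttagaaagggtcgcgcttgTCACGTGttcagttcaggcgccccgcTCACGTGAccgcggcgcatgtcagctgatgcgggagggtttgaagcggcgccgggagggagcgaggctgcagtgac

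The Pld4 window held 1 match to the C/EBP pattern TGNNGCAA, 238 bases before the start, and 1 to the PU.1 core just past the start. It held no CLEAR core. TGNNGCAA was found in 2 member genes (Pld4 and Hexa), in 5.88% of the 34 member windows, against 11.4% of all windows. TTNNGCAA was in 5 member genes, in 14.7% of member windows against 10.8% of all windows. The PU.1 core was in 4 member genes, in 11.8% of member windows against 9.35% of all windows. The 8 genes with a CLEAR core had log2 fold changes between −0.28 (Gla) and 0.06 (Mcoln1) with a median of −0.04, and edgeR called 0 of them. The table's start for Laptm5 lies inside its transcript in another annotation, so that window, which held no core, is not shown. Without Laptm5 the other 19 genes with a window ran from −1.29 to 0.21, with a median of −0.11, and edgeR called 1 of them. With Laptm5 the median of the 20 genes was −0.13, and edgeR called 2. The Laptm5 window is counted among the 34 member windows.

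Among the membrane proteins, 1 of 8 fell and the other 7 did not pass the threshold. Laptm5 encodes a lysosomal transmembrane protein of blood-derived cells that lowers the surface level of antigen receptors. It measured 54.2, 71.7 and 61.6 CPM in wild-type and 24.8, 29.7 and 27.3 CPM in heterozygous livers. All 3 heterozygous values lay well below the lowest wild-type value. Laptm5 fell 2.29-fold (log2 fold change −1.20 ± 0.13, with limits of −1.5 and −0.89 at 95%, edgeR adjusted p = 0.0308). Its direction held in every fit, but the call was lost without wild-type replicate 2 (edgeR adjusted p = 0.0508), heterozygous replicate 1 (0.180) or heterozygous replicate 2 (0.168).

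Laptm4a, the broadly expressed relative of Laptm5, stood at 212, 214 and 199 CPM in wild-type and 183, 195 and 211 CPM in heterozygous livers, so its groups overlapped (log2 fold change −0.09 ± 0.11). The log2 ratio of Laptm5 to Laptm4a went from −1.74 ± 0.20 to −2.84 ± 0.12 (SD, n = 3 each). That is a difference of −1.10, and the groups did not overlap. The two-sided exact permutation p was 0.1, the smallest that 3 against 3 can give, and 0.1 when adjusted over 3 pairs. The members and lists were chosen with earlier results of these data known. The 3 pair tests therefore give no separate support for the lower levels of Laptm5, Pld4 or Atp6v0d2.

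Lamp1 and Lamp2, the main glycoproteins that line the lysosomal membrane, differed little. Lamp1 measured 760.1, 835 and 801 CPM in wild-type samples and 893, 850 and 721 CPM in heterozygous samples, with the group means at 799 ± 37.5 and 821 ± 89.1 CPM. Its log2 fold change was 0.04 ± 0.12, with a 95% interval from −0.24 to 0.32. Lamp2 had an interval from −0.21 to 0.28. Scarb2, the receptor that carries glucocerebrosidase to lysosomes, was uneven among the heterozygous libraries at 145, 215 and 147 CPM, against 177 to 186 CPM in wild-type. Mcoln1, the TRPML1 calcium channel, was the member whose heterozygous libraries all lay above the wild-type ones, at 39.2 to 40.3 against 37.5 to 39.2 CPM, a difference far too small to pass (log2 fold change 0.06 ± 0.10, edgeR adjusted p = 0.890). Cln3, the protein lost in juvenile Batten disease, had a log2 fold change of −0.06 ± 0.13.

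**Figure D2:**
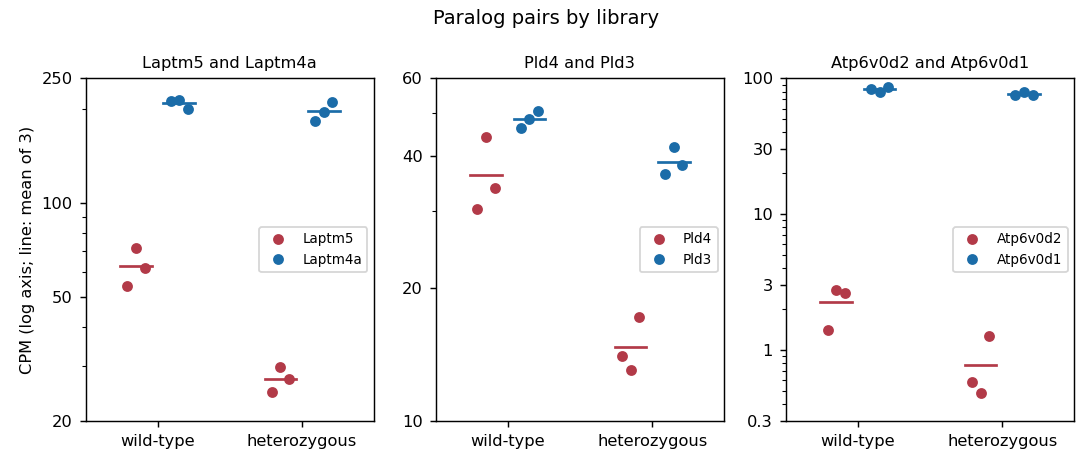
CPM on a log axis for 3 pairs of related genes in each library, with points for libraries and lines for the mean of 3. Laptm5, Pld4 and Atp6v0d2 lie lower in the heterozygous libraries with no overlap, while Laptm4a and Atp6v0d1 overlap and Pld3 is slightly lower.

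Among the peptidase and the exonucleases, Pld4 fell. Pld4 and Pld3 encode endolysosomal exonucleases that digest single-stranded nucleic acids and so limit nucleic acid sensing, and Pld4 is known from myeloid cells, plasmacytoid dendritic cells and B cells. Pld4 measured 30.4, 44.2 and 33.8 CPM in wild-type and 14.0, 13.0 and 17.2 CPM in heterozygous livers. The highest heterozygous library was well under the lowest wild-type one. Pld4 fell 2.45-fold (log2 fold change −1.29 ± 0.17, with limits of −1.68 and −0.91 at 95%, edgeR adjusted p = 0.0308). The call was lost without wild-type replicate 1 (edgeR adjusted p = 0.0519), 2 (0.0821) or 3 (0.0544) and without heterozygous replicate 1 (0.180) or 2 (0.173), and the direction held in every fit.

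Pld3 stood at 46.2, 48.6 and 50.5 CPM in wild-type and 36.3, 41.9 and 38.1 CPM in heterozygous livers. These groups did not overlap either, but the difference missed the threshold (log2 fold change −0.32 ± 0.11, edgeR adjusted p = 0.206). The log2 ratio of Pld4 to Pld3 differed between groups by −0.96, from −0.44 ± 0.26 to −1.39 ± 0.27, with no overlap (two-sided exact permutation p = 0.1, the smallest possible; adjusted over 3 pairs, 0.1). Tpp1, a peptidase that trims tripeptides from protein ends, had a log2 fold change of 0.10 ± 0.12.

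Of the 7 members listed as lipid-handling soluble proteins and activators, with which Grn was grouped, 0 passed in edgeR. At an unadjusted p under 0.05, 4 were lower (Npc2, Psap, Asah1 and Grn), against 9% of all genes. DESeq2 called 1, against 3.56% of all genes. Npc2 hands cholesterol to Npc1, which moves it out of the lysosome. Npc2 measured 83.0, 94.1 and 99.8 CPM in wild-type and 59.1, 62.3 and 72.0 CPM in heterozygous livers, without overlap. Its log2 fold change of −0.52 ± 0.12 had an edgeR adjusted p of 0.0915, and in DESeq2 the gene passed (−0.51, adjusted p = 0.0225). Npc1 gave no such difference. Its wild-type libraries were spread over 83.6, 151 and 118 CPM and enclosed the heterozygous ones at 137, 115 and 127 CPM (log2 fold change 0.10 ± 0.20). The sign of Npc1 turned without wild-type replicate 1 (−0.07, edgeR adjusted p = 0.902).

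Psap, the precursor of the saposins that help enzymes reach sphingolipids, measured 792, 1029 and 950.5 CPM in wild-type and 678, 703 and 678 CPM in heterozygous livers. The heterozygous libraries were close together and all lower (log2 fold change −0.43 ± 0.13, with limits of −0.72 and −0.14 at 95%, edgeR adjusted p = 0.167). Asah1, acid ceramidase, stood at 30.5, 41.8 and 34.3 against 23.1, 26.7 and 27.0 CPM, also without overlap (−0.47 ± 0.14, edgeR adjusted p = 0.162). Grn encodes progranulin, a secreted and lysosomal glycoprotein, and its difference leaned on 1 library. Wild-type replicate 1 measured 389 CPM against 255 and 263 CPM in the other wild-type libraries, and heterozygous replicate 2, at 257 CPM, lay among those. The log2 fold change of Grn was −0.51 ± 0.19 with all libraries (edgeR adjusted p = 0.3005) and −0.27 without wild-type replicate 1 (0.585).

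Lipa, the lysosomal acid lipase that splits cholesteryl esters and triglycerides, had the largest positive fold change of the members. It measured 140.2, 213 and 239 CPM in wild-type and 244, 213 and 228 CPM in heterozygous livers. Wild-type replicate 1 again stood apart, here as the low one, and the groups overlapped. The log2 fold change was 0.21 ± 0.18 (95% interval −0.21 to 0.63), and 0.04 without that library. Gm2a, which presents gangliosides to β-hexosaminidase, and Smpd1, acid sphingomyelinase, had fold changes of −0.08 ± 0.12 and −0.06 ± 0.12 on the log2 scale.

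**Figure D3:**
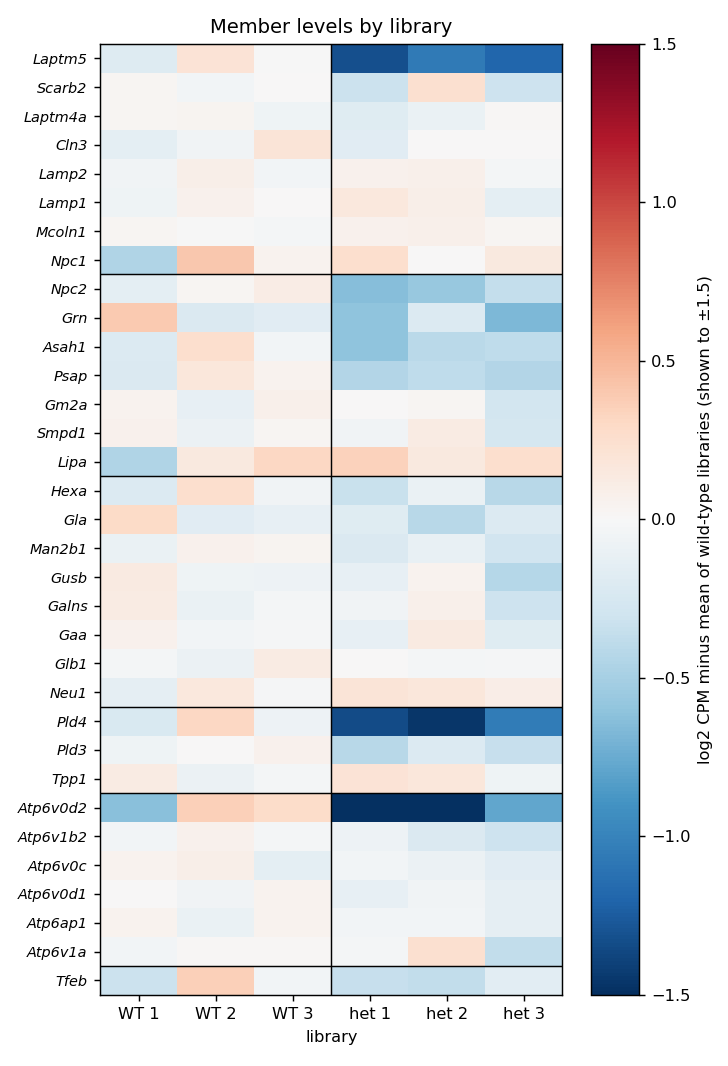
Log2 CPM of each member (rows, by role) in each library (columns) minus the mean of the wild-type libraries, with red above and blue below. Blue runs through all 3 heterozygous columns for Laptm5, Pld4 and Atp6v0d2 and, more faintly, for Npc2, Asah1 and Psap. Wild-type replicate 1 is apart for Grn and Lipa, and the 3 wild-type libraries are spread out for Npc1.

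The glycosidases and the sulfatase, which strip sugars and sulfate from glycogen, glycolipids and glycosaminoglycans, gave 0 calls among 8 genes and 0 at an unadjusted p under 0.05 (DESeq2 0, limma-voom 0). Their log2 fold changes ran from −0.29 to 0.15. Hexa, the α subunit of β-hexosaminidase, was the most negative, at 73.1 ± 12.1 and 59.7 ± 6.87 CPM with overlapping libraries. Man2b1, lysosomal α-mannosidase, stood at 147, 165 and 162 CPM against 136, 146 and 129 CPM, and Gla, α-galactosidase, at 4.90 to 6.71 against 4.12 to 4.83 CPM. Neither group pair overlapped, yet neither gene passed (edgeR adjusted p = 0.469 and 0.665). Neu1, the sialidase, was the positive member at 0.15 ± 0.11. Gaa, the α-glucosidase that digests glycogen, measured 144 ± 5.79 and 139 ± 17.1 CPM. For Glb1, β-galactosidase, the 95% interval was −0.27 to 0.24. Gusb, β-glucuronidase, and Galns, a sulfatase of keratan sulfate, had log2 fold changes of −0.16 ± 0.14 and −0.09 ± 0.15.

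Of the 6 V-ATPase members, 0 passed in edgeR, DESeq2 or limma-voom, and 1 was lower at an unadjusted p under 0.05. That gene was Atp6v0d2, the d2 subunit of the membrane part of the pump, known from osteoclasts and macrophages. It was the faintest member, at 1.4, 2.78 and 2.63 CPM in wild-type and 0.582, 0.485 and 1.26 CPM in heterozygous livers, from 8 to 51 counts a library. The highest heterozygous library came close to the lowest wild-type one without reaching it. The fold change was the largest of all members but the least certain (log2 −1.54 ± 0.44, edgeR adjusted p = 0.152). Atp6v0d1, the d1 subunit found in most cells, stood at 83.0, 79.8 and 86.1 CPM against 76.1, 80.1 and 75.8 CPM, with overlap (−0.10 ± 0.10). The log2 ratio of Atp6v0d2 to Atp6v0d1 differed by −1.36, from −5.18 ± 0.52 to −6.54 ± 0.67, without overlap (two-sided exact permutation p = 0.1, the smallest possible; adjusted over 3 pairs, 0.1).

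The remaining pump genes differed less than Atp6v0d2. Atp6v1b2, a subunit of the catalytic head, measured 52.8, 56.5 and 53.1 CPM against 51.3, 46.6 and 43.5 CPM. These groups did not overlap, but the gene did not pass (log2 fold change −0.20 ± 0.11, edgeR adjusted p = 0.495). Atp6v1a, the catalytic subunit itself, had a log2 fold change of −0.03 ± 0.15, and its heterozygous libraries ran from 28.9 to 44.0 CPM around wild-type values of 36.4 to 37.9 CPM. Atp6v0c, the proton-binding ring subunit, and Atp6ap1, an accessory protein, had values of −0.10 ± 0.11 and −0.07 ± 0.10. Tfeb measured 8.66, 13.9 and 10.5 CPM in wild-type and 8.50, 8.36 and 9.69 CPM in heterozygous livers, which overlapped (−0.31 ± 0.20, edgeR adjusted p = 0.573).

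A miss of the threshold does not show that these genes were equal between groups, so the intervals were counted. For 30 of the 33 members the 95% interval lay above a 2-fold fall, the exceptions being Laptm5, Pld4 and Atp6v0d2. For 22 it lay within a 1.5-fold change in either direction. The interval lay wholly below 0 for 8 members and wholly above 0 for 0.

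Levels between genes were compared per length, as mean wild-type CPM per kilobase of annotated exon. Lamp1 was highest at 358, then Psap at 337, Grn at 129, Laptm4a at 117 and Lamp2 at 99.7 CPM per kilobase. Laptm5 at 24.0 and Pld4 at 18.2 lay in the middle of the list, near Npc1 at 22.5, Pld3 at 20.4 and Mcoln1 at 18.6. Atp6v0d2 was lowest at 0.893, after Gla at 1.75 and Tfeb at 2.74 CPM per kilobase. The genes that fell were not the faintest ones, and the 2 most abundant members had different fold changes, 0.04 for Lamp1 and −0.43 for Psap on the log2 scale. Neighbours in this order can swap with the exon length used.

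**Figure D4:**
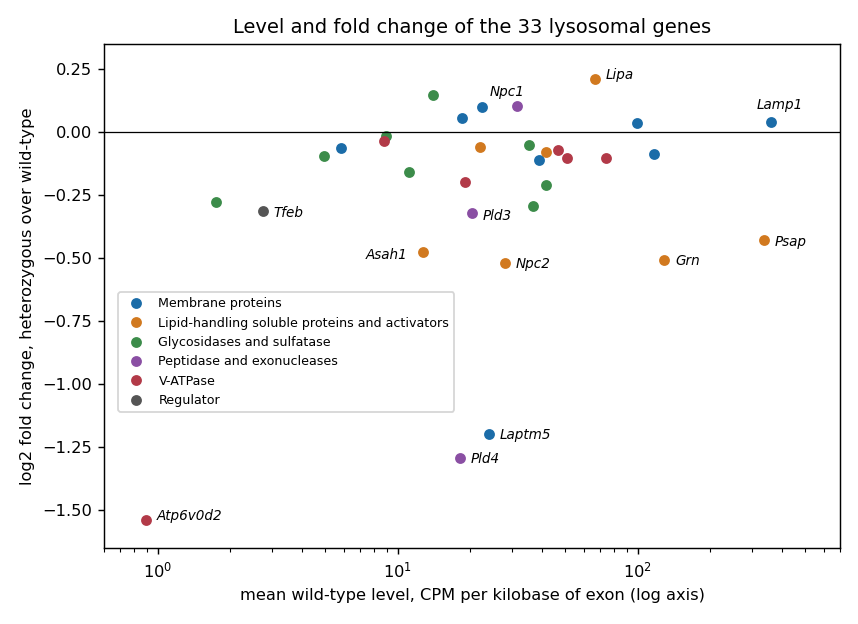
Mean wild-type level in CPM per kilobase of exon (x, log axis) against log2 fold change (y) for the 33 members, coloured by role. Laptm5 and Pld4 stand far below genes of the same level, and Atp6v0d2 is at the low end with 0.893 CPM per kilobase.

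Markers of macrophages and of several other cell types were lower in the same libraries. All 8 general macrophage markers (Adgre1, Csf1r, Cd68, Mertk, Fcgr1, C1qa, C1qb and C1qc) had a negative fold change and 4 passed in edgeR, with a median of −1.14. Their summed level was 487 to 824 CPM in wild-type and 246 to 304 CPM in heterozygous livers. The 6 Kupffer cell markers summed to 174 to 370 and 87.9 to 128 CPM (0 passed), mostly through Cd5l. Within that list Folr2 had a positive log2 fold change of 0.41 ± 0.42, Timd4 overlapped, and Clec4f stood at 48.6, 38.5 and 5.42 CPM in wild-type and 3.90 to 4.97 CPM in heterozygous livers. The 4 monocyte markers summed to 222 to 376 and 84.0 to 109 CPM (2 passed), mostly through Lyz2. Lyz2 and Ccr2 passed, while Plac8 and Ly6c2 lay lower without overlap but did not pass (edgeR adjusted p = 0.0715 and 0.447). Conventional dendritic cell markers (0 of 4 passed) summed to 25.5 to 28.5 and 6.84 to 17.9 CPM, and neutrophil markers to 21.6 to 25.1 and 6.70 to 10.9 CPM, with 1 of 3 tested markers past the threshold. T and NK cell markers (0 of 4 tested passed) summed to 9.08 to 14.5 and 4.76 to 6.35 CPM. Stellate cell markers (0 of 4) summed to 324 to 404 and 221 to 305 CPM, mostly through Dcn, while Pdgfrb overlapped and Lrat had a positive log2 fold change of 0.14 ± 0.13. Ly6g of the neutrophil list had 1 count in each wild-type and 0 in each heterozygous library, too few to test. In bulk tissue fewer cells of a type and less RNA per cell cannot be told apart.

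Cell types known to express Pld4 or Atp6v0d2 besides macrophages were looked at too. B cell markers summed to 2.87 to 7.29 CPM in wild-type and 3.33 to 5.47 CPM in heterozygous livers, and plasmacytoid dendritic cell markers to 247 to 296 and 238 to 269 CPM, both overlapping. Most of the latter sum was Bst2, which is not restricted to those cells. Of its 4 markers, 2 were lower at an unadjusted p under 0.05 without passing, Siglech with overlap (log2 fold change −1.31 ± 0.58, edgeR adjusted p = 0.379) and Ccr9 without (−1.31 ± 0.46, edgeR adjusted p = 0.248). Of the osteoclast markers, Oscar was near 0 (at most 0.0610 CPM) and Ctsk measured 1.38 to 3.35 CPM over all libraries, and the 3 in the table summed to 3.50 to 6.40 and 2.73 to 3.44 CPM (0 of 2 tested passed). Hepatocyte markers (0 of 6 passed), sinusoidal endothelial markers (0 of 4) and cholangiocyte markers (0 of 4) overlapped in their sums. The endothelial markers went different ways. Clec4g lay higher without overlap (log2 fold change 0.55 ± 0.16, edgeR adjusted p = 0.142). With overlap, Kdr and Stab2 had values of 0.72 ± 0.30 and 0.27 ± 0.19, and Lyve1 −1.19 ± 0.53. Among the cholangiocyte markers Krt7 lay lower without overlap (−1.09 ± 0.49, edgeR adjusted p = 0.388). The part of any cell type in the results was not tested.

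Set against the 8 summed macrophage markers, the members fell into different ranges, in a description added after the values were seen. Laptm5 stood at 11.1, 8.70 and 11.6 CPM per 100 CPM of markers in wild-type and 10.1, 11.04 and 8.97 in heterozygous livers, and Pld4 at 6.24, 5.37 and 6.34 against 5.71, 4.83 and 5.66. Both pairs of groups overlapped, in each case only through wild-type replicate 2. That library had the highest marker sum, 824 CPM against 487 and 533 CPM in wild-type replicates 1 and 3. For Laptm5, Pld4 and Atp6v0d2 the heterozygous mean was 0.960, 0.903 and 0.744 times the wild-type mean. For the other 30 members it was 1.47 to 2.55 times as high, with all heterozygous libraries above all wild-type ones for 29 of them, as for 81.1% of all tested genes. The median ratio over all tested genes was 2.16. The low end held Grn (1.47), Npc2 (1.501), Asah1 (1.59) and Psap (1.63), all below that median, and the high end Lipa (2.55). All of these ratios share 1 denominator, whose wild-type mean was 2.25 times the heterozygous one, so they restate the fold changes on another scale. Kupffer cell and monocyte sums fell too, by 2.35 and 3.08 times. Conventional dendritic cell, neutrophil and T and NK cell sums fell by 2.45, 2.79 and 2.02 times. Stellate cell and osteoclast sums fell by 1.45 and 1.49 times. The B cell and hepatocyte sums, which overlapped, gave 1.11 and 0.928. Whether Laptm5 and Pld4 follow macrophages in particular was not tested.

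**Figure D5:**
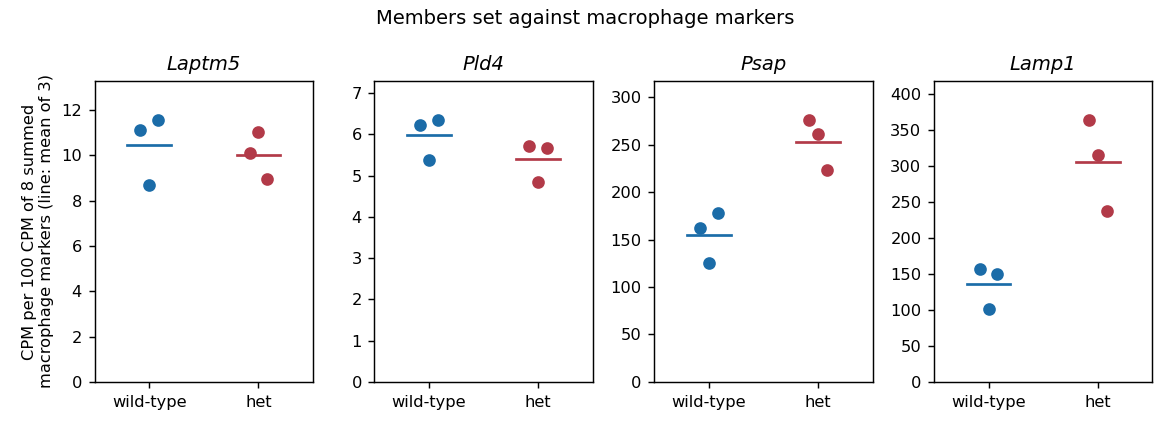
CPM of 4 members per 100 CPM of the 8 summed macrophage markers in each library (linear axes from 0, line for the mean of 3). Laptm5 and Pld4 overlap between wild-type and heterozygous (het) libraries, only through wild-type replicate 2. Psap and Lamp1 lie higher in all 3 heterozygous libraries. The ratio of heterozygous to wild-type mean is 1.63 for Psap and 2.25 for Lamp1, against a median of 2.16 over all tested genes.

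Lysosomal genes that were not members were looked at as 53 further symbols, of which 52 were tested. In edgeR 0 passed in either direction, against 0.559% of all genes lower and 0.0236% higher. At an unadjusted p under 0.05, 6 were lower and 1 higher, against 9% and 4.2% of all genes. The median log2 fold change was −0.05. DESeq2 called 3 lower, against 3.56% of all genes, and limma-voom 0, against 0.354%. Lgmn, the asparaginyl endopeptidase legumain, measured 132 ± 10.9 and 82.0 ± 11.2 CPM without overlap and came closest (log2 fold change −0.68 ± 0.13, edgeR adjusted p = 0.0539; DESeq2 adjusted p = 0.000874). Tcirg1, the a3 subunit of the V-ATPase used by osteoclasts and macrophages, stood at 102 ± 3.22 and 78.0 ± 1.59 CPM (−0.38 ± 0.10, edgeR adjusted p = 0.108; DESeq2 0.0408). The remaining tested pump subunits ran between log2 fold changes of −0.16 (Atp6v0e) and 0.02 (Atp6v1c1). Cd63, a tetraspanin of late endosomes, measured 14.3 ± 2.37 and 8.47 ± 2.0 CPM (edgeR adjusted p = 0.138, DESeq2 adjusted p = 0.0491). Ppt1 and Clcn7 were also lower at an unadjusted p under 0.05 without passing (edgeR adjusted p = 0.176 and 0.294).

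Among the relatives of Tfeb, Tfec, the family member known from macrophages, measured 3.23, 4.73 and 4.60 CPM in wild-type and 2.56, 2.24 and 1.32 CPM in heterozygous livers. The groups did not overlap, but the gene did not pass (log2 fold change −1.04 ± 0.30, edgeR adjusted p = 0.156). Tfe3 and Mitf had log2 fold changes of 0.02 ± 0.12 and 0.0008 ± 0.21. Fnip1, a partner of folliculin in signalling to these factors, was the gene higher at an unadjusted p under 0.05, with 15.3 ± 0.796 and 19.0 ± 0.582 CPM (0.32 ± 0.12, edgeR adjusted p = 0.266).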

How the data were processed

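RNA from 6 liver samples (500 ng each, TRIzol, TruSeq Stranded mRNA kit, per the labels' protocols) was read from 1 table of whole-number counts per gene symbol, which the authors deposited without normalization. The submitters' processing notes name HISAT2 2.2.1.0, HTSeq 0.9.1 and Trimmomatic 0.36, and the build GRCm39. The sources used here do not give the annotation, strand setting or filters, so genes overlapping an antisense partner, and Atp6v0c, which has pseudogene copies, are uncertain. In R 4.3.3, genes were filtered (filterByExpr), scaled by TMM and tested with edgeR 4.0.16 (robust glmQLFit, glmQLFTest, no covariate), checked on simulated counts. Intervals use the SE, the absolute log2 fold change over the square root of F. Paralog ratios used log2 CPM with a prior count of 2. Alternatives were other scalings and filters, DESeq2 1.42.0, limma-voom (limma 3.58.1), a non-robust fit, the replicate number as a block, and each library left out. Exon lengths came from GENCODE M21 (GRCm38) and promoters from RefSeq (GRCm38.p6). Members past the threshold, up to 8 more with the smallest p and the paralog pairs were to be given in full. A planned comparison of their proteins was not made. The members and lists were chosen with earlier results of these data known.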

Additional observations from a re-analysis of the deposited data

How the results depend on the processing

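Laptm5 and Pld4 were both called lower under RLE and upper-quartile scaling, with no filter on low counts, with at least 1 CPM in 3 samples, in DESeq2 and limma-voom and in a non-robust fit, and 0 members were called higher in any setting. Members called lower numbered 3 in DESeq2, which added Npc2. Leaving out 1 library at a time gave 0 to 2. The same left-out libraries gave 0 to 107 lower and 0 to 15 higher calls over all genes, against 71 and 3. Over all genes, lower and higher calls numbered 48 and 2 with RLE scaling and 36 and 1 with upper-quartile scaling. They numbered 190 and 21 with no filter and 47 and 1 with at least 1 CPM in 3 samples. DESeq2 gave 452 and 82, limma-voom 45 and 1, and the non-robust fit 20 and 0. Of the other lysosomal genes, 1 (Lgmn) was lower with no filter and 3 (Lgmn, Cd63, Tcirg1) in DESeq2. The cause of these changes was not tested.

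With the replicate number as a block, 0 members were called and 0 genes lower and 0 higher over all genes, with an edgeR adjusted p of 0.178 for both Laptm5 (log2 fold change −1.19) and Pld4 (−1.28). Deviations of same-numbered libraries correlated at −0.21, −0.31 and 0.19, and the shared numbers were therefore not taken as pairs. With the block 8 members were lower at an unadjusted p under 0.05, but not the same genes as without it: Hexa was among them and Grn was not.

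Under the settings that kept all libraries, 1 member value turned its sign, Glb1 with no filter (0.0060, edgeR adjusted p = 0.992). With 1 library left out, signs turned for members near 0. Log2 fold changes then ran from −0.010 to 0.13 for Lamp1, −0.32 to 0.0026 for Scarb2, −0.11 to 0.044 for Cln3, −0.073 to 0.32 for Npc1, −0.14 to 0.013 for Gm2a, −0.15 to 0.036 for Smpd1, −0.15 to 0.014 for Gaa, −0.055 to 0.048 for Glb1, −0.18 to 0.0096 for Galns and −0.19 to 0.11 for Atp6v1a. Paralog differences kept their sign, from −1.08 to −0.80 for Pld4 against Pld3, −1.74 to −1.10 for Atp6v0d2 against Atp6v0d1 and −1.21 to −1.01 for Laptm5 against Laptm4a. Depth limits Atp6v0d2, with at most 51 counts a library.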
